A study of Homo sapiens with 6 samples.

Results

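Expression of 8 genes that govern the breakdown of circulating triglyceride was examined in human hepatoblast-like cells exposed to HFPO-TA. This compound, the trimer acid of hexafluoropropylene oxide, is a per- and polyfluoroalkyl substance with ether bonds. The genes were chosen by symbol: CREB3L3, FGF21, ANGPTL4, ANGPTL8, LPL, LIPC, LIPG and LMF1. All 8 were found once each among the 60623 genes of the deposited tables. The cells were derived from H9, an established human embryonic stem cell line, and are labelled hepatoblasts at day 19 of differentiation. One group of 3 libraries came from cells given 0.1% DMSO as vehicle and the other group of 3 from cells given HFPO-TA; the unit of the dose is garbled in the labels, so no dose is given, and whether the HFPO-TA medium held DMSO is not stated. All libraries come from the single line H9, and the labels do not say whether replicates were separate cultures, so the error behind each p-value is that between libraries and may be only technical.

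CREB3L3 encodes a transcription factor of liver and intestine that is held in the endoplasmic reticulum membrane until Golgi proteases release it, and it drives genes of triglyceride clearance and the fasting hormone FGF21. Lipoprotein lipase (LPL), hepatic lipase (LIPC) and endothelial lipase (LIPG) are related secreted enzymes that hydrolyse lipids of circulating lipoproteins. LMF1 is an endoplasmic reticulum protein that these lipases need to mature, whereas ANGPTL4 and ANGPTL8 belong to the angiopoietin-like family that restrains lipoprotein lipase outside the cell. CREB3L3, FGF21 and ANGPTL4 are known targets of PPARA, the nuclear receptor of fatty acid catabolism.

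The upstream sequences of 3 of these genes are shown because these genes share a known regulator but had different levels and differences in these cells. Each holds the 250 bases before the RefSeq transcription start (GRCh38.p14, plus strand), with capitals marking matches to a searched motif. For CREB3L3 the window is chr19:4153381-4153630, for ANGPTL4 chr19:8363905-8364154 and for FGF21 chr19:48755274-48755523.
CREB3L3: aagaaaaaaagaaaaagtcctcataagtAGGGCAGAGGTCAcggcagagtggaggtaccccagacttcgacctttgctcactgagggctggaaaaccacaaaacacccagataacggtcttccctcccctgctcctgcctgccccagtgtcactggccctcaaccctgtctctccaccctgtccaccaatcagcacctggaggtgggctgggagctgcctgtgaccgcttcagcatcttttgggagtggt
ANGPTL4: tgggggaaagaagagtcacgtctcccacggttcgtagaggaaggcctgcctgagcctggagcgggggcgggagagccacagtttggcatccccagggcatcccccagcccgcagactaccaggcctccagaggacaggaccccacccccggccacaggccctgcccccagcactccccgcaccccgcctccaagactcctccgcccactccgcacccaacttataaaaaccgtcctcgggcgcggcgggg
FGF21: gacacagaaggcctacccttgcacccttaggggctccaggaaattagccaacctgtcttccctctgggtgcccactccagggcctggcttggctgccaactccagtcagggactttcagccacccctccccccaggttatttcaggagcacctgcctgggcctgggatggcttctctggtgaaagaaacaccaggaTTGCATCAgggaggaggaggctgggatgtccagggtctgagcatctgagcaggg

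The motifs searched on both strands were AGGNCANAGGNCA, the direct repeat form that binds PPAR and RXR pairs, TGACGT, the core of the cyclic AMP response element, and TGANGNAA, a form of the ATF4 element. The CREB3L3 window held 1 direct repeat match, AGGGCAGAGGTCA, which begins 222 bases before the start on the strand of the gene. Such a match lay in 73 of 27305 windows of the same length, or 0.267%. The FGF21 window held 1 match to the ATF4 form, printed on the strand of the gene as TTGCATCA and beginning 54 bases before the start. The ANGPTL8 window also held 1, TGATGCAA, beginning 126 bases before its start; 12.8% of windows hold this form. No window was available for LPL, which was not searched. TGACGT, found in 7.42% of windows, was absent from the windows of all 7 members searched, and the ANGPTL4 window held none of the searched motifs. Known PPAR elements of ANGPTL4 lie within the gene, outside this window. In a looser search, added after the data were seen, mismatches to AGGTCANAGGTCA were counted over its 12 fixed letters. LIPC came within 2 mismatches (ggaactctgacct on the strand of the gene, beginning 239 bases before its RefSeq start), as did 2.56% of windows, and CREB3L3 within 1, as did 0.297%. The LIPC window is chr15:58431741-58431990, whereas GENCODE 29 starts the gene at 58410569. Of its 250 bases, 193 are annotated there as LIPC exon, so much of this window is also transcribed sequence in that annotation. In the LIPG window 110 bases are exon of LIPG, and in each other window 30 or fewer are exon of its gene. The closest site in each of the FGF21, ANGPTL4 and LIPG windows had 4 mismatches, and 68.9% of windows came as close. In the ANGPTL8 and LMF1 windows it had 5, and 99.4% of windows came as close. Whether closeness to this repeat goes with a higher level was not tested. These matches describe letters only, and no binding was measured.

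Of the 8 genes, 5 reached the level needed for testing, at least 1 TPM, a level per transcript length scaled to a fixed sum, in 3 or more libraries. CREB3L3 rose with HFPO-TA, and no other member passed the threshold of an adjusted p under 0.05. In the same comparison 0.185% of the 15664 tested genes were called higher, 0.306% lower and 0.492% either way. Groups did not overlap for CREB3L3 and LIPC, which were higher in all 3 HFPO-TA libraries, and for LMF1, which was lower. Among all tested genes 8.55% were higher and 9.4% lower without overlap. ANGPTL4 and LIPG overlapped between the groups. FGF21, ANGPTL8 and LPL stayed too low for testing.

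**Figure D1:**
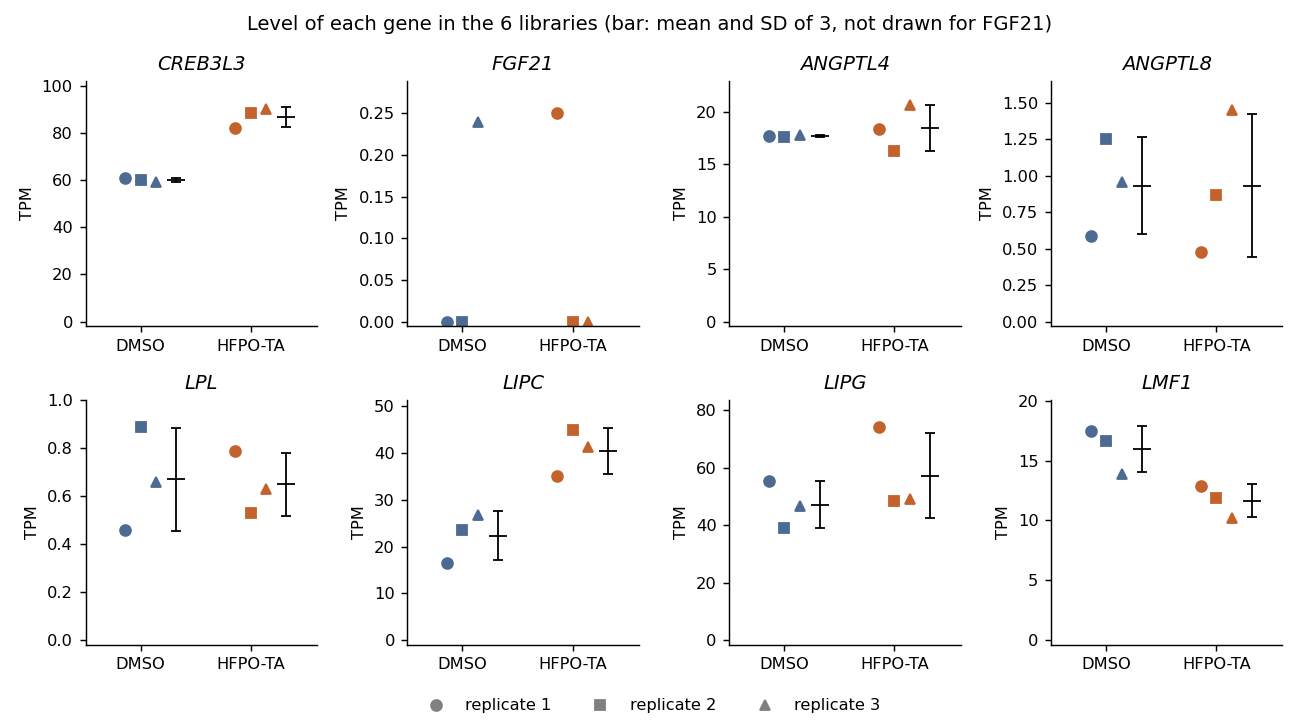
TPM of the 8 genes (y axis, TPM, a separate linear scale for each gene) in the 3 DMSO and 3 HFPO-TA libraries (x axis). Points are libraries, shapes are replicate numbers and bars are the mean and SD of 3, not drawn for FGF21. CREB3L3, LIPC and LMF1 separate the groups, while ANGPTL8, LPL and FGF21 lie below 1.5 TPM in every library.

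CREB3L3 (ENSG00000060566) lies on chromosome 19 from 4153601 to 4173054 on the plus strand (GENCODE 29, GRCh38) and overlaps no other annotated gene. It stood at 60.90, 60.25 and 59.16 TPM in DMSO replicates 1 to 3 and at 82.11, 88.44 and 90.19 TPM in HFPO-TA replicates 1 to 3. The 3 control libraries lay within 2 TPM of each other, and the lowest HFPO-TA library was well above all of them. Group means were 60.1 ± 0.879 and 86.9 ± 4.25 TPM (SD, n = 3 each), 1.45 times higher with HFPO-TA. The log2 fold change was 0.52 (SE 0.06, 95% interval 0.37 to 0.67, adjusted p = 0.0272 by limma with Benjamini-Hochberg adjustment). The direction was the same in every alternative fit, but the call was lost without DMSO replicate 1, 2 or 3 and without HFPO-TA replicate 2 or 3 (adjusted p from 0.0552 to 0.189). It was kept without HFPO-TA replicate 1 (adjusted p = 0.0141). It was lost with median-of-ratios scaling (adjusted p = 0.0609), without a filter (0.105) and without trended or robust variance (0.104).

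The genes whose profile over the 6 libraries was most like that of CREB3L3 were HSD17B4, SNTB1, TPD52, HSDL2 and IDH1. Likeness was the root mean square difference between mean-centred log2(TPM + 1) values, compared over 10062 other genes with a mean of at least 5 TPM. HSD17B4, a peroxisomal enzyme of beta-oxidation, differed by 0.030, with means of 213 and 307 TPM. SNTB1, a syntrophin of the membrane skeleton, and TPD52 differed by 0.036 each. HSDL2, a dehydrogenase-like protein, differed by 0.038 and IDH1, the NADP-dependent isocitrate dehydrogenase of cytosol and peroxisomes, by 0.045. Since CREB3L3 was higher in one group, genes that rose by a like amount come first by this measure.

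FGF21 (ENSG00000105550, chromosome 19 from 48755559 to 48758333, plus strand), the fasting hormone downstream of CREB3L3 and PPARA, was listed at 0 TPM in 4 of 6 libraries. The exceptions were DMSO replicate 3 at 0.24 TPM and HFPO-TA replicate 1 at 0.25 TPM. Each group thus had 1 library with a trace, and the exact permutation test of the log2 values gave p = 1 (2-sided; smallest possible p 0.1). TPM keeps no sequencing depth, so how many reads such a value stands for is unknown.

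LIPC (ENSG00000166035, chromosome 15 from 58410569 to 58569843, plus strand), the hepatic lipase that acts on remnants and high-density lipoprotein, showed the largest difference among the 5 tested members without passing the test. It stood at 16.57, 23.57 and 26.75 TPM in the DMSO libraries and at 35.14, 44.85 and 41.17 TPM in the HFPO-TA libraries. Every HFPO-TA library was above every DMSO library, and replicate 1 was the lowest of its group in both. Means were 22.3 ± 5.21 and 40.4 ± 4.90 TPM (SD, n = 3 each; log2 fold change 0.85, SE 0.17, 95% interval 0.45 to 1.25, adjusted p = 0.0946 by limma). A letter in the file names, which the labels do not explain, parts replicate 1 from replicates 2 and 3 in both groups. With a term for that letter LIPC was called higher (adjusted p = 0.0152), as it was in replicates 2 and 3 alone (log2 fold change 0.75, adjusted p = 0.0385). Calls over all tested genes also rose there, from 77 as reported to 207 and 222. LIPC was called in only these 2 of the 17 alternative fits. In the 6 fits without a library it was called in 0 (adjusted p from 0.0641 to 0.309 by limma). No gene that overlaps LIPC shares exon bases with it in GENCODE 29.

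LIPG (ENSG00000101670, chromosome 18 from 49560699 to 49599182, plus strand), the endothelial lipase that acts mainly on phospholipids, was the most abundant of the 3 lipases LPL, LIPC and LIPG. It stood at 55.47, 39.03 and 46.73 TPM with DMSO and at 74.31, 48.27 and 48.95 TPM with HFPO-TA. Replicate 1 was the highest of its group in both, and the groups overlapped. The log2 fold change was 0.26 (SE 0.19, 95% interval -0.19 to 0.71, adjusted p = 0.674 by limma). The value moved with the libraries fitted, to 0.06 without HFPO-TA replicate 1, 0.14 without DMSO replicate 2, 0.38 when DMSO replicate 1 was left out and 0.37 and 0.36 when HFPO-TA replicates 2 and 3 were, and none of these fits called it. All 6 stromal markers were also highest in replicate 1 of both groups, and their summed level was 1840, 1177 and 1363 TPM with DMSO and 2096, 995 and 960 TPM with HFPO-TA. The endothelial markers did not move as one: of the 6, 1 was highest in replicate 1 of both groups (KDR) and 2 were lowest there (TEK and PECAM1, the latter at 10.16, 14.42 and 12.51 TPM with DMSO and 7.04, 10.78 and 12.06 TPM with HFPO-TA). limma called 0 of the 5 endothelial markers tested, with 1 (EMCN) at an unadjusted p under 0.05, where 12% of all tested genes lay. Of the 9 hepatic markers 8 were lowest in replicate 1 of both groups, as LIPC was. The part of these lists in the LIPC and LIPG levels was not tested.

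LPL (ENSG00000175445, chromosome 8 from 19901717 to 19967259, plus strand), the lipase of adipose tissue and muscle, was nearly silent by comparison. It stood at 0.46, 0.89 and 0.66 TPM with DMSO and at 0.79, 0.53 and 0.63 TPM with HFPO-TA, with full overlap (exact permutation p = 0.9, 2-sided). LPL made up between 0.566% and 1.40% of the summed TPM of the 3 lipases. GPIHBP1, the endothelial anchor of LPL, was listed at 0 in all DMSO libraries and averaged 0.0133 TPM with HFPO-TA. The adipocyte markers ADIPOQ, LEP and CIDEA were each below 1 TPM in every library, while PLIN1 averaged 2.55 and 2.62 TPM.

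Together the 3 lipases summed to 72.5, 63.5 and 74.1 TPM in the DMSO libraries and to 110.2, 93.7 and 90.8 TPM in the HFPO-TA libraries, without overlap. The LIPC share of that sum was 22.9, 37.1 and 36.1% with DMSO and 31.9, 47.9 and 45.4% with HFPO-TA. The ratio of LIPG to LIPC was 3.35, 1.66 and 1.75 with DMSO and 2.11, 1.08 and 1.19 with HFPO-TA. LIPG exceeded LIPC in all 6 libraries, replicate 1 had the highest ratio of each group, and the groups overlapped (exact permutation p = 0.3, 2-sided).

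LMF1 (ENSG00000103227, chromosome 16 from 853634 to 981318, minus strand), the lipase maturation factor, was lower in every HFPO-TA library than in any DMSO library. It stood at 17.46, 16.66 and 13.84 TPM with DMSO and at 12.87, 11.91 and 10.18 TPM with HFPO-TA. The gap between the groups was narrow beside the spread within them, and the fit did not call it (log2 fold change -0.42, SE 0.13, 95% interval -0.72 to -0.13, adjusted p = 0.24 by limma). LMF1 was not called in any of the 17 alternative fits (adjusted p from 0.121 to 0.561). LMF1-AS1 and AC009041.2 share exon bases with it and averaged below 1 TPM in both groups.

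ANGPTL4 (ENSG00000167772, chromosome 19 from 8363289 to 8374373, plus strand), the fasting-induced inhibitor of lipoprotein lipase, did not separate the groups. It stood at 17.68, 17.54 and 17.75 TPM with DMSO and at 18.36, 16.24 and 20.60 TPM with HFPO-TA. The control libraries were almost identical, and the HFPO-TA libraries lay on both sides of them. The 95% interval of its log2 fold change ran from -0.19 to 0.29 (estimate 0.05, SE 0.10). The interval of CREB3L3 began above this range, at 0.37; the difference between these genes was not tested.

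ANGPTL8 (ENSG00000130173, chromosome 19 from 11237450 to 11241943, plus strand), a feeding-induced member of the family, stood at 0.59, 1.25 and 0.96 TPM with DMSO and at 0.48, 0.87 and 1.45 TPM with HFPO-TA. Both groups averaged 0.933 TPM, and the HFPO-TA libraries spanned the range of the controls (exact permutation p = 1, 2-sided). ANGPTL8 lies wholly inside DOCK6 on the opposite strand and shares 350 of its 1223 exon bases with it. DOCK6 averaged 24.6 and 22.7 TPM, and without knowledge of strand the ANGPTL8 value is uncertain.

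In the DMSO libraries the order of mean levels was CREB3L3, LIPG, LIPC, ANGPTL4, LMF1, ANGPTL8, LPL and FGF21. LIPC and ANGPTL4 overlapped there, as did ANGPTL8 and LPL, while the other neighbours did not. The order of means was the same with HFPO-TA, where LIPC lay above ANGPTL4 in all 3 libraries without overlap and ANGPTL8 and LPL still overlapped.

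**Figure D2:**
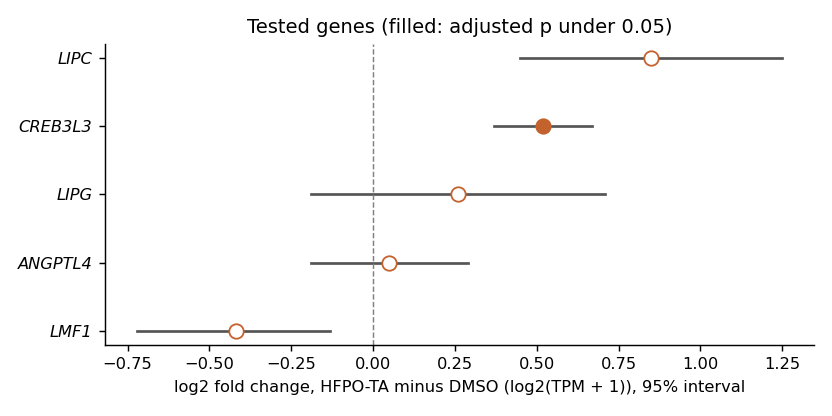
Difference between the HFPO-TA and DMSO means of log2(TPM + 1) (x axis, the log2 fold change) for the 5 tested genes (y axis), with 95% intervals from limma; filled points have an adjusted p under 0.05. CREB3L3 at 0.52 is filled, LIPC at 0.85 has a wider interval, and the intervals of LIPG and ANGPTL4 span 0.

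Partners of these genes were counted in 6 lists, some of which share genes such as APOA4. Among activators, inhibitors and partners of the lipases, limma called 0 of 19 tested genes (an unadjusted p under 0.05 was reached by 4, 2 in each direction, where 12% of all tested genes lay), with a median log2 fold change of -0.03 beside -0.008 over all tested genes. The most abundant were APOA4 at 24158 ± 2106 and 33856 ± 4722 TPM and APOC3, an inhibitor of lipoprotein lipase, at 13756 ± 1562 and 14071 ± 2225 TPM (SD, n = 3 each). APOC2, the obligate activator of lipoprotein lipase, averaged 366 and 361 TPM. Of the 6 other angiopoietin-like genes, 4 were tested and 0 called by limma (1 at an unadjusted p under 0.05), with a median of -0.13; ANGPTL2 averaged 5.98 and 5.74 TPM.

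Of 15 tested genes that process CREB3L3, belong to its family or are its known targets, 1 rose and 14 were not called (median 0.06). Over all tested genes 0.185% were called higher. The riser was PCK1, the gluconeogenic enzyme, at 184.09, 128.14 and 145.88 TPM with DMSO and 270.77, 259.12 and 275.61 TPM with HFPO-TA (log2 fold change 0.83, SE 0.12, adjusted p = 0.0418 by limma). The call on PCK1 was kept in 1 of the 6 fits without a library, the one without DMSO replicate 1 (adjusted p from 0.0124 to 0.227 over the 6). APOA4, a lipoprotein target of CREB3L3, had an adjusted p of 0.149, and CIDEC, a lipid droplet protein, stood at 59.3 ± 3.72 and 88.1 ± 10.8 TPM (SD, n = 3 each; log2 fold change 0.56, adjusted p = 0.0688 by limma). Of the 15, PCK1, APOA4 and CIDEC were the 3 higher without overlap and 0 were lower without overlap. Over all tested genes these shares were 8.55% and 9.4%. All 6 lists were chosen with earlier results of these data known, so such counts are a description and no test. MBTPS1 and MBTPS2, the proteases that release the factor, averaged 29.9 and 29.5 TPM and 7.38 and 7.33 TPM. Its acute phase targets HAMP, CRP and APCS were listed at 0 in all 6 libraries.

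Of 15 tested receptors, relatives and regulators of FGF21, 1 rose, 1 fell and 13 were not called (median -0.10). Over all tested genes 0.185% were called higher and 0.306% lower. Without overlap 3 of the 15 were higher and 5 lower, where 8.55% and 9.4% of all tested genes lay. At an unadjusted p under 0.05, reached by 12% of all tested genes in either direction, 3 were higher and 4 lower. GDF15, a stress hormone, rose from 125 ± 11.4 to 270 ± 55.4 TPM (adjusted p = 0.0418 by limma), and FGFR4, the main FGF receptor of hepatocytes, fell from 152 ± 6.21 to 115 ± 3.71 TPM (adjusted p = 0.0419; SD, n = 3 each). Each of these calls was kept in 1 of the 6 fits without a library, the one without HFPO-TA replicate 1. KLB, the co-receptor that FGF21 needs, averaged 60.1 and 61.3 TPM, and FGFR1, its usual receptor partner, 27.8 and 27.9 TPM. PPARA itself stood at 25.14, 21.91 and 17.77 TPM with DMSO and 26.86, 28.49 and 29.31 TPM with HFPO-TA (adjusted p = 0.27). DDIT3, a stress-induced factor, missed the threshold at 82.2 ± 8.79 and 122 ± 7.88 TPM (adjusted p = 0.0506), while ATF4 averaged 221 and 233 TPM.

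Of 9 tested lipases of the pancreatic lipase family or inside the cell, limma called 0, with a median of 0.0037. An unadjusted p under 0.05 was reached by 5, 2 higher and 3 lower, and by 12% of all tested genes. LIPA, the lysosomal acid lipase, was the most abundant at 197 ± 14.4 and 270 ± 20.7 TPM (SD, n = 3 each; adjusted p = 0.063 by limma), followed by PNPLA3 at 31.5 and 26.0 TPM. Of 20 tested PPARA targets outside the 8 genes, 4 rose and 16 were not called, with a median of 0.30 and 12 of 20 higher without overlap. Over all tested genes 0.185% were called higher and 8.55% were higher without overlap. PLIN2, PDK4 and ACSL5 rose, with log2 fold changes of 1.99, 2.34 and 1.29, and were called in every alternative fit. CREB3L3, at 0.52, lay above that median and ANGPTL4, at 0.05, below it. This list is known from earlier results of these data to be higher, so its median is a description and no test.

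**Figure D3:**
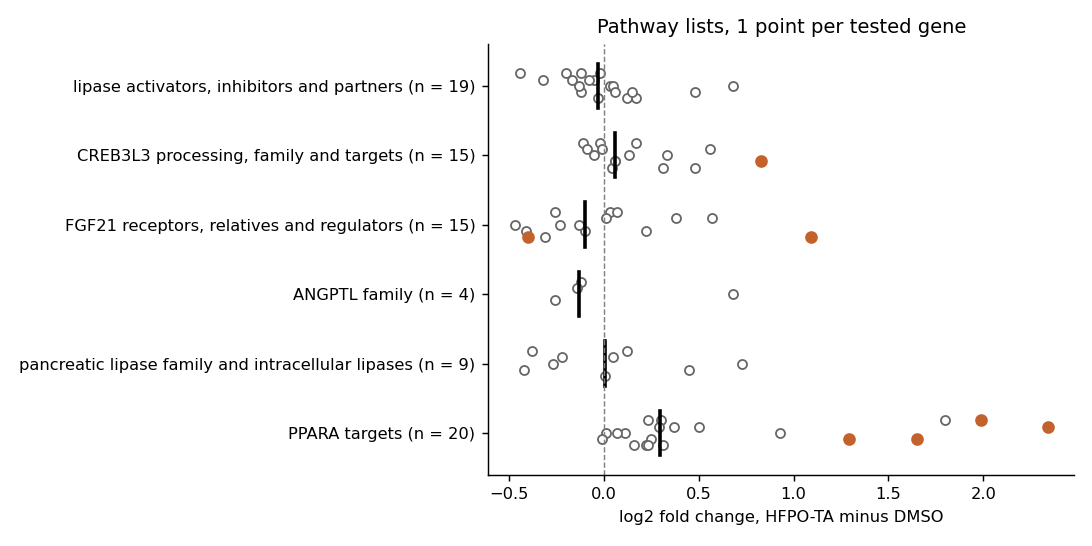
Log2 fold change of HFPO-TA minus DMSO (x axis) for each tested gene of the 6 lists (y axis, with the number tested); filled points are called at an adjusted p under 0.05 and black bars are list medians. The median of the PPARA targets is 0.30, and those of the other 5 lists lie between -0.13 and 0.06.

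**Figure D4:**
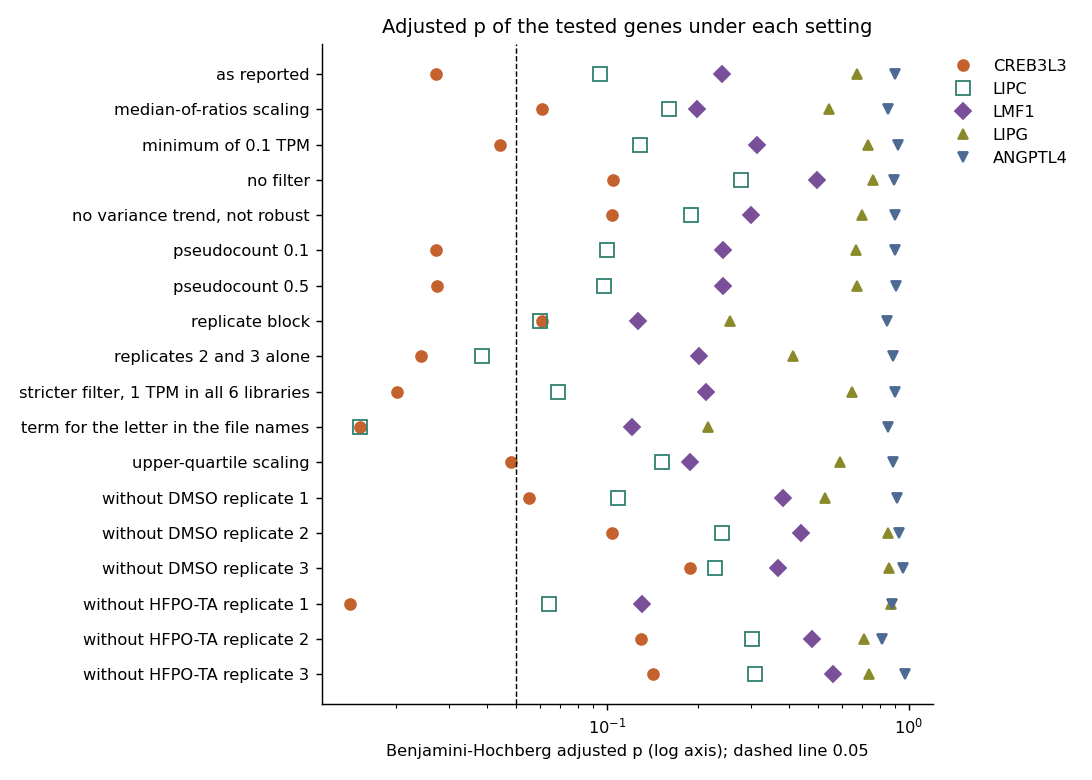
Adjusted p (x axis, log scale, dashed line at 0.05) of the 5 tested genes under the reported fit and 17 alternatives (y axis). CREB3L3 is left of the line in the reported fit and 8 alternatives, LIPC in 2, and LMF1, LIPG and ANGPTL4 in none.

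The hepatic label was checked against 9 markers, all of which were present: AFP averaged 76581 and 65021 TPM, and ALB 113 and 64.7 TPM. Of these markers limma called 0, and 7 of 9 had a log2 fold change below 0. At an unadjusted p under 0.05, where 12% of all tested genes lay in either direction, 5 were lower. Their summed level ran from 105229 to 116477 TPM with DMSO and from 94769 to 102892 TPM with HFPO-TA. The 6 stromal markers summed to between 1177 and 1840 TPM with DMSO and between 960 and 2096 TPM with HFPO-TA, the 5 macrophage markers to between 52.8 and 58.1 and between 51.3 and 63.3 TPM, and the 4 gut markers to between 307 and 324 and between 289 and 298 TPM. Of the tested markers of these lists and of the pluripotent and adipocyte lists 0 were called by limma, and at an unadjusted p under 0.05 there was 1 gut and 1 pluripotent marker, both lower. Gut markers were present too: VIL1 averaged 211 and 198 TPM, CDX2 61.6 and 58.5, LGALS4 37.3 and 36, and TFF3 4.03 and 1.53 TPM. The hepatic marker HNF4A averaged 49.3 and 38.4 TPM. In bulk RNA, fewer cells of a type and less RNA per cell cannot be told apart, and the part of these levels in the results above was not tested. Between 15383 and 15905 genes reached 1 TPM in each library.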

How the data were processed

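RNA sequencing of 6 libraries was used, 3 per group, grouped by the sample titles. Each table deposited by the authors holds 1 value per gene; the header says FPKM, but columns sum to between 995690 and 996186, so the authors' values were read as TPM. The build GRCh38.p13 and the tools RSEM, HISAT and Bowtie2 are listed, per the submitters' processing notes, without versions or roles; for the kit, its strand and the annotation nothing is stated in the labels. TPM hides depth, so counting error is not given.

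Values were transformed to log2(TPM + 1), which understates changes of low genes. The 15664 genes that reached 1 TPM in 3 or more libraries were fitted with limma 3.58.1 in R 4.3.3, treatment as the only term, trended and robust variance, and Benjamini-Hochberg adjustment over all of them, 2-sided. Genes under that level were compared by an exact permutation test over 20 assignments. The fit was tested on simulated data. Alternatives covered the pseudocount, filter, scaling, variance estimate, a term for the file-name letter, replicate number and each library left out.

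Positions came from GENCODE 29, which holds 58516 of the 60623 identifiers, and promoter windows from RefSeq for the 7 members other than LPL. The 8 genes and all lists were chosen with earlier results of these data known. Genes named are the 8, called list members, the 2 most abundant of a list with none called, the 5 nearest CREB3L3 in profile, and others chosen for their role or after their values were seen. Some genes that this rule took are not reported here. Figures used matplotlib 3.10.9.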

Additional observations from a re-analysis of the deposited data

How the results depend on the processing

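Changed genes numbered 77 as reported, 39 with upper-quartile and 30 with median-of-ratios scaling, 29 with a minimum of 0.1 TPM, 10 without a filter (60% higher, against 37.7%), 11 without a variance trend (72.7% higher), 207 with a term for the file-name letter, 222 in replicates 2 and 3 alone and 6 to 291 with 1 library left out. Of the 8 genes, 1 was called as reported and 0 with median-of-ratios scaling, without a filter or without trended or robust variance. With the letter term or in replicates 2 and 3 alone 2 were called, and 0 to 1 with 1 library left out. CREB3L3 lost its call with median-of-ratios scaling (0.53), without a filter and without trended or robust variance (0.52 each). It had 0.50 to 0.56 with 1 library left out and kept the call only without HFPO-TA replicate 1. LIPC gained a call with the letter term (0.85) and in replicates 2 and 3 alone (0.75). Called members of the 6 lists numbered 7 as reported, 4 with a minimum of 0.1 TPM and 3 without a filter or without trended or robust variance. They numbered 11 with the stricter filter, 16 with the letter term, 14 in replicates 2 and 3 alone and 3 to 13 with 1 library left out. Leaving out libraries lowers the number fitted; beyond that the cause was not tested. The log2 fold change of ANGPTL4 turned to -0.03 without HFPO-TA replicate 3, and its highest value was 0.13. The other tested members kept their direction in all 17 alternatives, and the median over all genes stayed within 0.04 of 0.

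Replicate numbers were not taken to pair libraries, because the titles do not state that they do. Deviations from group means correlated at 0.184, 0.123 and 0.028 for same-numbered libraries of opposite groups. For differently numbered libraries of opposite groups the values ran from -0.158 to 0.068. Whether same-numbered libraries share a source was not tested. A replicate block gave 30 changed genes, 20 of them among the 77, 0 of the 8 genes were called, and CREB3L3 (0.52) had an adjusted p of 0.061 and LIPC 0.06. TPM carries no depth, so the traces of FGF21, LPL and ANGPTL8 cannot be given a counting error.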
